A study of Mus musculus with 6 samples.

Results

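The cytosolic ribosomal proteins are the protein part of the ribosome outside mitochondria. Their genes were taken from the gene count table by symbol: protein-coding genes named Rpl or Rps with a number (optionally followed by a, x, l or l1), together with Rplp0, Rplp1, Rplp2 and Rpsa, and without pseudogenes and S6 kinases. This gave 82 of the 57186 genes in the table, 51 of the large and 31 of the small subunit. Bulk RNA was sequenced from 3 libraries of CRISPR Y-KO tumours and 3 libraries of CRISPR Y-Scr tumours. Both groups were grown from MB49, a mouse bladder carcinoma line of male origin, implanted subcutaneously in mice of the strain C57Bl/6J. The tumours had reached 500 mm3 at harvest, and the cells sorted from them were negative for CD45, the common leukocyte antigen. The labels give neither the guides, whether a line was 1 clone, the age and sex of the mice, nor whether replicates came from separate animals, so each p-value speaks of variation among the 6 libraries alone, and part of that variation may be technical. In bulk RNA, a shift in which cells were present and a change in RNA per cell cannot be told apart.

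A ribosome holds 1 copy of nearly every ribosomal protein, and the acidic stalk proteins Rplp1 and Rplp2 are the exception, present in several copies. The proteins are made in large excess over most others in growing cells and assembled with ribosomal RNA in the nucleolus. Their mRNAs begin with a run of pyrimidines at the capped end, the terminal oligopyrimidine tract, through which the kinase complex mTORC1 and the RNA-binding protein Larp1 control translation of the whole family together.

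Stretches around the transcription start are shown for members the results turn on, so that pyrimidine runs near it can be seen beside the values that follow. Each holds 30 bases, 10 before the RefSeq start and 20 from it, in the direction of transcription (RefSeq, GRCm38.p6). Capitals mark a run of at least 7 pyrimidines that begins with C. Rplp2 lies at chr7:141447641-141447670, plus strand, Rpl18 at chr7:45718061-45718090, plus strand, Rpl28 at chr7:4792955-4792984, plus strand, and Rpl22l1 at chr3:28805498-28805527, plus strand. Rps12 lies at chr10:23787190-23787219, minus strand, Rps2 at chr17:24720053-24720082, plus strand, and Rps16 at chr7:28350679-28350708, plus strand. Rplp0 lies at chr5:115559457-115559486, plus strand, Rpl5 at chr5:107900518-107900547, plus strand, and Rps6, the target of the S6 kinases, at chr4:86857348-86857377, minus strand.
Rplp2: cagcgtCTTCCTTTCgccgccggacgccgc
Rpl18: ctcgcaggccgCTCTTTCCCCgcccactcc
Rpl28: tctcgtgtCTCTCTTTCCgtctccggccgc
Rpl22l1: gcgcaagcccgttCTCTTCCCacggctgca
Rps12: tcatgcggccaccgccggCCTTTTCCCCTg
Rps2: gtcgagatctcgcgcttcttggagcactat
Rps16: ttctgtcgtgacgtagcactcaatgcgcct
Rplp0: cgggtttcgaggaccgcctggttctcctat
Rpl5: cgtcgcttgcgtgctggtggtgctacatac
Rps6: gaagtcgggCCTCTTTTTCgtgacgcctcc

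The first 5 of these genes, which were all higher in Y-KO, carry the run in the stretch printed, while Rps2, also higher, has its run further downstream. Of the genes not called, Rps6 carries a run in the stretch printed. Rpl5 has a run of 9 bases that starts 20 bases before the RefSeq start, outside the stretch. For Rps16 and Rplp0 no run was found within 40 bases. Whether these runs lie at the capped end of the mRNA was not tested. The RefSeq promoter table held 62 of the 82 members. A pyrimidine run of at least 7 letters starting with C was found within 40 bases of the start in 47 of them (75.8%), against 9531 of all 27025 promoters (35.3%). It was present in 6 of the 6 members called higher that had an entry. The ETS motif CCGGAAG, searched on both strands of the 250 bases before and 50 after the start, was in 24 members (38.7%) and in 9.12% of all promoters. The YY1 motif AAGATGGC, which can overlap the ETS motif by its opening letters, was in 5 members (8.06%) and in 2.88% of all. The Sp1 motif GGGCGG was in 37 members (59.7%) and in 35.9% of all. Of the 6 called members with an entry, 2 held the ETS motif, 4 the Sp1 motif and 0 the YY1 motif.

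The libraries were deep, with totals of 45989502 to 51057829 counts in Y-KO and 42040955 to 52951031 in Y-Scr. The Y-linked genes Kdm5d, Uty, Ddx3y and Eif2s3y, which check the labels, were all called lower in Y-KO, with log2 fold changes of -3.72 to -2.72 (edgeR). Some libraries stood apart from others of their group. Pairs of libraries were compared by the mean chi-square over genes averaging at least 1000 counts. Sampling noise alone gives about 1 where counts are independent. Here reads were counted singly and most low counts were even, so noise alone gives more than 1. The value was 13.3 for Y-KO replicates 1 and 2, and 189 for either against replicate 3. It was 7.72 for Y-Scr replicates 2 and 3, and 30.7 and 41.5 for replicate 1 against them. Counts of calls among the members and the larger gene lists are therefore also given with the close pairs summed or without single libraries. Cell type markers differed as well: the summed level of 16 T and NK cell markers was 194 to 348 CPM (counts scaled by the TMM-adjusted library size) in Y-KO and 1239 to 1323 CPM in Y-Scr, and that of 12 macrophage markers 1526 to 2876 CPM in Y-KO and 1750 to 1897 CPM in Y-Scr. Epithelial markers, 10 in all, summed to 3277 to 3471 CPM in Y-KO and 2412 to 2740 CPM in Y-Scr, with 4 called higher and 1 lower of 9 tested (4 lower without Y-KO replicate 3, and 2 higher and 0 lower with the close pairs summed, each of 10 then tested).

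Ribosomal protein mRNA made up a similar part of the RNA in both groups. In replicate order, members took 8.29%, 7.98% and 9.57% of all counts in the Y-KO libraries and 9.60%, 8.45% and 8.24% in the Y-Scr libraries. The groups overlapped, and the highest libraries were Y-KO replicate 3 and Y-Scr replicate 1. Mitochondrially encoded RNA took 6.39% to 6.44% of counts in Y-KO and 2.87% to 2.99% in Y-Scr. With those genes left out of the total, the share of ribosomal protein counts was 8.86%, 8.53% and 10.2% in Y-KO and 9.88%, 8.71% and 8.50% in Y-Scr.

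A minority of members was called higher in Y-KO. Of the 80 members that passed the filter on low counts, 11 were called higher and 0 lower by edgeR at an adjusted p under 0.05, or 13.75% of the members, where 7.82% of all 17837 genes tested were called higher and 8.27% lower. The other 69 were not called, 50 with a log2 fold change above 0 and 19 below, and 17 members had an unadjusted p under 0.05. DESeq2 and limma-voom each called 11 members higher and 1 lower, where DESeq2 called 10.3% of all genes tested higher and 11.2% lower, and limma-voom 8.55% higher and 9.83% lower. The median log2 fold change of the members was 0.11, against -0.03 over all genes tested. With library size alone in place of TMM, which moved the median of all genes to -0.17, edgeR called 4 members higher and 1 lower (730 genes or 4.09% higher and 2255 genes or 12.6% lower over all genes tested, against 1395 and 1476 genes with TMM), and 37 members were above 0 in place of 61. Groups did not overlap in 15 members with Y-KO higher and in 1 with Y-KO lower, 20% of members tested, where 37.7% of all genes tested were separated in either direction (17.5% with Y-KO higher and 20.3% lower). All differences were small: among called members the fold ran from 1.25 to 1.51. For the 77 members averaging at least 50 CPM, the SE of the log2 fold change was 0.06 to 0.17.

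Counts moved with the libraries used. Without Y-KO replicate 1, edgeR called 5 members higher and 0 lower, beside 3.86% of all genes higher and 5.35% lower. Without Y-Scr replicate 2 it called 1 member higher and 0 lower, beside 2.45% and 3.1% of all genes, and without Y-Scr replicate 3 again 1 and 0, beside 2.56% and 3.01%. That member was Rplp2 both times. Without Y-KO replicate 2, 8 members were called higher and 0 lower, beside 3.9% and 5.62% of all genes. Without Y-Scr replicate 1, 16 were called higher and 0 lower, all 11 of the full fit among them, beside 5.2% and 4.06% of all genes. Without Y-KO replicate 3, 15 members were called higher and 9 lower, beside 16% of all genes higher and 17.7% lower. With the close pairs summed, an alternative chosen after seeing the data, 0 members were called in either direction, beside 0.7% of all genes higher and 1.85% lower.

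**Figure D1:**
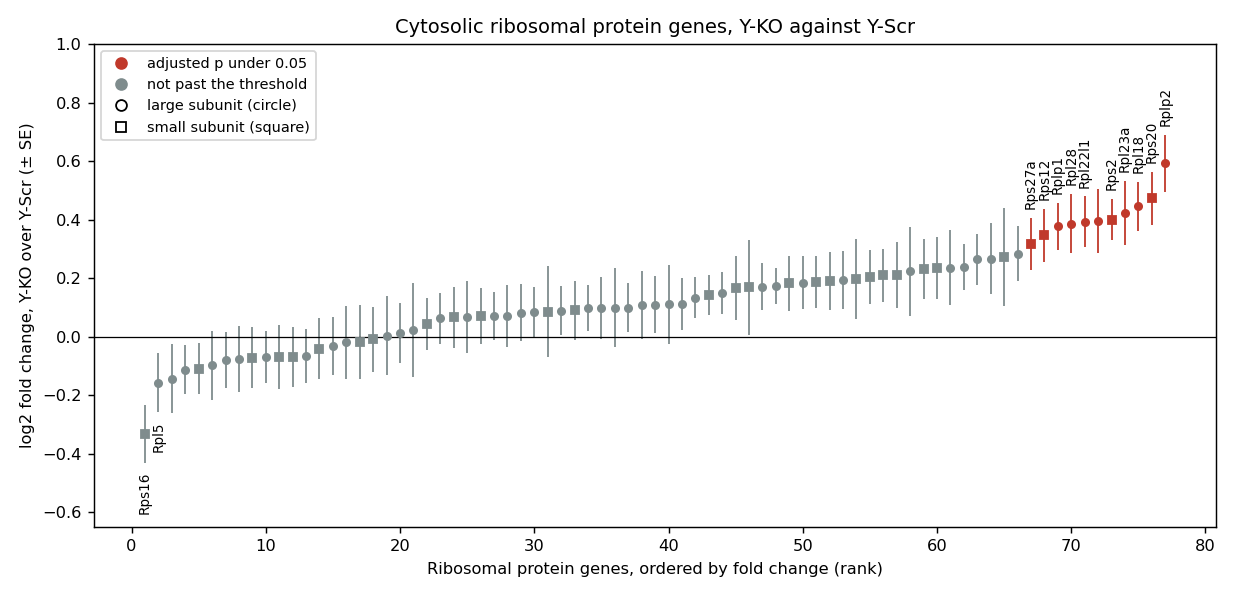
Log2 fold change of Y-KO over Y-Scr (y axis, bars ± SE from edgeR) for the 77 members with a mean of at least 50 CPM, ordered by rank on the x axis. Red marks the 11 members called higher. Circles are large-subunit and squares small-subunit genes, and both kinds are spread along the order, with Rps16 at the low end and Rplp2 at the high end.

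The called member with the largest fold was Rplp2, of the acidic stalk of the large subunit, which recruits the GTPases of translation such as the elongation factors. Of 4 genes of the stalk and its base, 2 were called higher, and 0 with the close pairs summed. Rplp2 (ENSMUSG00000025508, chromosome 7, 141027283 to 141031498, GRCm39) had, in replicate order, 1070, 1003 and 1182 CPM in Y-KO, and 811, 678 and 671 CPM in Y-Scr. The groups did not overlap, and the lowest Y-KO library stood above the highest Y-Scr library. The mean was 1085 ± 90.6 CPM over Y-KO libraries, against 720 ± 79.1 CPM over Y-Scr libraries (SD, n = 3 each). Rplp2 was thus 1.51-fold higher in Y-KO (log2 fold change 0.59, SE 0.10), at an edgeR adjusted p of 0.00534. Among called members, Rplp2 alone kept its call without each of the 6 libraries in turn (largest edgeR adjusted p = 0.0443). With the close pairs summed its edgeR adjusted p was 0.106.

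Rplp1 (chromosome 9, 61820566 to 61821824), the partner with which Rplp2 forms dimers on the stalk, had 1733, 1725 and 1886 CPM in Y-KO and 1522, 1317 and 1278 CPM in Y-Scr. The groups did not overlap, and the gene was 1.30-fold higher in Y-KO (log2 fold change 0.38, SE 0.08, edgeR adjusted p = 0.017). Rplp0, which anchors those dimers to the ribosome, had 3445, 3343 and 3946 CPM in Y-KO and 3722, 3274 and 3230 CPM in Y-Scr. Its groups overlapped and it was not called (log2 fold change 0.07, SE 0.08, edgeR adjusted p = 0.629). Rpl12 at the stalk base had a log2 fold change of -0.10 and was not called. A ratio within a library does not depend on scaling: Rplp2 stood at 0.311, 0.300 and 0.300 of the Rplp0 count in Y-KO, and at 0.218, 0.207 and 0.208 in Y-Scr. Rplp1 stood at 0.503, 0.516 and 0.478 of Rplp0 in Y-KO, and at 0.409, 0.402 and 0.396 in Y-Scr. Both ratios were higher in every Y-KO library than in any Y-Scr library, including the libraries whose total ribosomal protein level differed from the others of their group.

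Elsewhere in the large subunit, Rpl18, Rpl23a and Rpl28 were among the members called higher. Rpl18 (chromosome 7, 45364881 to 45370260) had 1456, 1506 and 1600 CPM in Y-KO and 1246, 1075 and 1031 CPM in Y-Scr, so that Y-KO was 1.36-fold higher without overlap (log2 fold change 0.45, SE 0.08, edgeR adjusted p = 0.00983). Rpl23a (chromosome 11, 78071758 to 78074410) sits at the rim of the exit tunnel, where chaperones and the signal recognition particle dock on the nascent chain. It had 331, 304 and 381 CPM in Y-KO and 282, 242 and 234 CPM in Y-Scr, and the groups did not overlap (log2 fold change 0.42, SE 0.11, edgeR adjusted p = 0.0331). Of its exon bases 62.3% lie in 2 other genes, with the largest overlap opposite Tlcd1. Strand was ignored, so reads fitting several genes were left out of the counts, and the effect on Rpl23a was not tested. Among the 8 members listed for the exit tunnel and its rim, Rpl23a was the 1 called, and the median log2 fold change was 0.04.

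Rpl28 (chromosome 7, 4795873 to 4798065), which budding yeast lacks, had 1108, 1074 and 1210 CPM in Y-KO and 995, 826 and 774 CPM in Y-Scr. The groups did not overlap (log2 fold change 0.39, SE 0.10, edgeR adjusted p = 0.0345).

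In the small subunit 4 of 31 members were called higher: Rps20, Rps2, Rps12 and Rps27a. Rps20 (chromosome 4, 3831334 to 3835665), a protein of the head of the subunit, had 1119, 1054 and 1257 CPM in Y-KO and 900, 797 and 774 CPM in Y-Scr, 1.39-fold higher in Y-KO (log2 fold change 0.47, SE 0.09, edgeR adjusted p = 0.00993). Rps2 (chromosome 17, 24937090 to 24940903), which lines the path where mRNA enters and is a substrate of the methyltransferase Prmt3, had 2738, 2885 and 2934 CPM in Y-KO and 2355, 2098 and 2033 CPM in Y-Scr. Neither gene overlapped between groups, and Rps2 was 1.32-fold higher in Y-KO (log2 fold change 0.40, SE 0.07, edgeR adjusted p = 0.00712). Rps12 (chromosome 10, 23661081 to 23663173), required for cell competition in Drosophila, had 1651, 1505 and 1820 CPM in Y-KO and 1433, 1238 and 1241 CPM in Y-Scr. Rps27a (chromosome 11, 29495846 to 29498109), translated as a fusion to ubiquitin, had 1108, 1074 and 1264 CPM in Y-KO and 1010, 885 and 871 CPM in Y-Scr. In both the lowest Y-KO library was Y-KO replicate 2, and it stayed above Y-Scr replicate 1 (edgeR adjusted p = 0.0345 for Rps12 and 0.0441 for Rps27a).

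Apart from Rplp2, each called member lost its edgeR call when Y-Scr replicate 2 or Y-Scr replicate 3 was left out, at adjusted p values between 0.0539 for Rps2 and 0.187 for Rps27a. The calls of Rps12, Rpl22l1 and Rpl23a were also lost without Y-KO replicate 1. Those of Rps27a and Rpl28 were lost when either of Y-KO replicates 1 and 2 was left out. The log2 fold changes of all 11 stayed above 0 without each library in turn, with the lowest at 0.24 for Rps27a without Y-KO replicate 3.

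**Figure D2:**
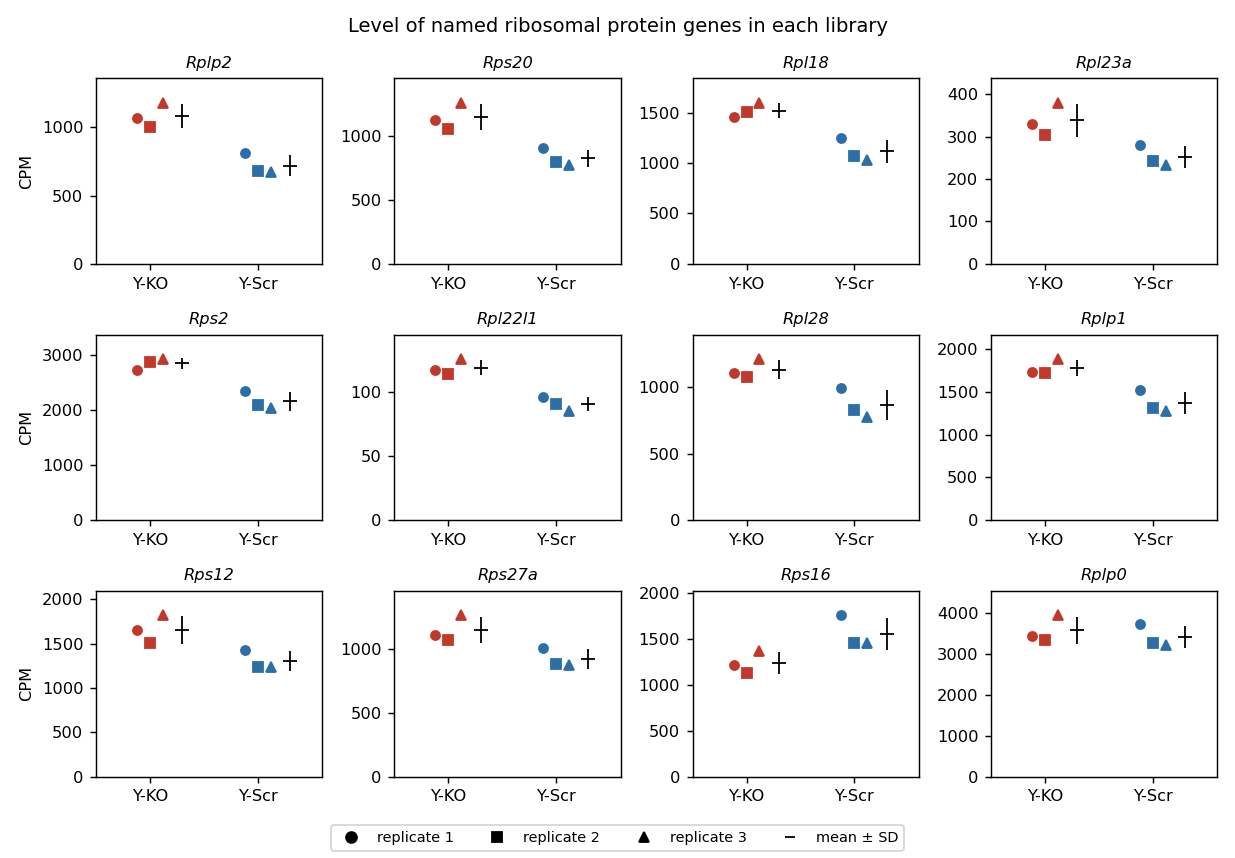
CPM (y axis, from 0) in each library for 10 members called higher, Rps16 and Rplp0, with Y-KO left in red, Y-Scr right in blue, and a marker shape for each replicate. Black lines give mean ± SD (n = 3). The groups are separate in every panel but that of Rplp0, and Y-KO replicate 3 and Y-Scr replicate 1 are the highest of their group.

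Several ribosomal proteins have a second gene, expressed in particular tissues or at a low level. Rpl22l1 (chromosome 3, 28859585 to 28861573), whose mRNA is repressed by its partner Rpl22 in mice, was the 1 paralog called. It had 117, 114 and 126 CPM in Y-KO and 96.2, 90.6 and 84.9 CPM in Y-Scr, 1.31-fold higher without overlap (log2 fold change 0.39, SE 0.09, edgeR adjusted p = 0.0185). Rpl22 had 347, 333 and 375 CPM in Y-KO and 342, 329 and 315 CPM in Y-Scr, groups that overlapped (log2 fold change 0.10, edgeR adjusted p = 0.456). The Rpl22l1 count was 0.337, 0.343 and 0.335 of the Rpl22 count in Y-KO, and 0.281, 0.276 and 0.270 in Y-Scr. This ratio was higher in every Y-KO library.

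The other paralogs were not called. Rps27l, a target of p53, had 127, 130 and 142 CPM in Y-KO and 134, 118 and 103 CPM in Y-Scr, and its partner Rps27 had 600, 485 and 695 CPM in Y-KO and 676, 509 and 494 CPM in Y-Scr. Rpl7l1 had 111, 110 and 114 CPM in Y-KO and 111, 106 and 97.2 CPM in Y-Scr, and Rpl7 had 1602, 1594 and 1864 CPM in Y-KO and 1743, 1502 and 1532 CPM in Y-Scr. Groups overlapped for all 4 genes, and the ratio of paralog to partner overlapped too. The paralog of striated muscle, Rpl3l, had 8, 10 and 0 counts in Y-KO and 26, 16 and 9 counts in Y-Scr (log2 fold change -1.34, SE 1.11, edgeR adjusted p = 0.471). Rpl39l, a testis paralog, had 0, 0 and 6 counts in Y-KO and 4, 12 and 2 counts in Y-Scr, and Rpl10l, also of testis, had 0 counts in every library. Rpl39l and Rpl10l were the 2 members that did not pass the filter.

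Partners of those near-silent genes were abundant. Rpl3, which lies close to the peptidyl transferase centre, had 2223, 2150 and 2555 CPM in Y-KO and 2673, 2296 and 2307 CPM in Y-Scr. Rpl10, needed for the joining of subunits, had 1298, 1306 and 1595 CPM in Y-KO and 1603, 1430 and 1403 CPM in Y-Scr. Rpl39, in the wall of the exit tunnel, had 468, 405 and 614 CPM in Y-KO and 573, 450 and 440 CPM in Y-Scr. In these 3 genes Y-Scr replicate 1 and Y-KO replicate 3 were the high libraries of their groups, and none was called. Rps4x had 1834, 1858 and 2226 CPM in Y-KO and 1846, 1718 and 1639 CPM in Y-Scr (edgeR adjusted p = 0.196). Of the 7 partners 0 were called, and of the 4 X-linked members (Rps4x, Rpl10, Rpl36a and Rpl39) 0 were called. No member lies on chromosome Y, and chromosome 7, which holds 14 members, had 3 of the 11 called.

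At the other end of the order stood Rps16 (ENSMUSG00000037563, chromosome 7, 28050077 to 28052580), whose tail reaches the tRNA in the peptidyl site. It had 1215, 1128 and 1370 CPM in Y-KO and 1760, 1459 and 1458 CPM in Y-Scr. Every Y-KO library was below every Y-Scr library, which was so for no other member. Its log2 fold change was -0.33 (SE 0.10), and edgeR did not call it (adjusted p = 0.0559), while DESeq2 (adjusted p = 0.0483) and limma-voom (adjusted p = 0.0437) did. Without Y-KO replicate 3 edgeR called Rps16 (adjusted p = 0.000392), in a fit that called 33.7% of all genes. It was not called without any other single library (edgeR adjusted p up to 0.204). With the close pairs summed its edgeR adjusted p was 0.306. The Rps16 count was 0.353, 0.338 and 0.347 of the Rplp0 count in Y-KO, and 0.473, 0.446 and 0.451 in Y-Scr.

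Rps16 has pseudogene copies, and reads that match several places were not counted. Of 300 ribosomal protein pseudogenes named with -ps, 150 were tested, and 0 were called higher and 1 lower. The 1 called was Rps16-ps2, with 63.7, 62.2 and 68.3 CPM in Y-KO and 90.02, 85.8 and 83.1 CPM in Y-Scr (log2 fold change -0.42, SE 0.08, edgeR adjusted p = 0.0134). This call was lost without any of the libraries except Y-KO replicate 3, and with the close pairs summed. Without Y-KO replicate 3, 5 of 156 pseudogenes tested were called higher and 4 lower, beside 16% and 17.7% of all genes. Reads of Rps16 and Rps16-ps2 may be split between them. Both were lower in Y-KO. Reads that match both places were in neither count, and their part in the difference was not tested.

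The 5S ribonucleoprotein genes, whose proteins bind Mdm2 when ribosome assembly stalls, differed little. Rpl5 had 1270, 1249 and 1564 CPM in Y-KO and 1657, 1456 and 1445 CPM in Y-Scr, and Y-KO replicate 3 reached into the Y-Scr range (log2 fold change -0.16, SE 0.10, edgeR adjusted p = 0.336). Without that library edgeR called Rpl5 (adjusted p = 0.00216). It was not called without any other single library (edgeR adjusted p up to 0.766). With the close pairs summed its edgeR adjusted p was 0.717. Rpl11 had 1020, 1022 and 1130 CPM in Y-KO and 1089, 943 and 929 CPM in Y-Scr, groups that overlapped (edgeR adjusted p = 0.475).

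The make-up of the ribosomal protein mRNA was compared as well. Each member was expressed as a percentage of all ribosomal protein counts of its library. On this scale Rplp2 took 1.23%, 1.19% and 1.18% in Y-KO and 0.874%, 0.850% and 0.860% in Y-Scr. Rps20 took 1.28%, 1.25% and 1.26% in Y-KO and 0.969%, 0.999% and 0.993% in Y-Scr. Both were flat within each group and apart between groups. Rps16 took 1.39%, 1.34% and 1.37% in Y-KO and 1.90%, 1.83% and 1.87% in Y-Scr. Rpl5 took 1.45%, 1.48% and 1.57% in Y-KO and 1.78%, 1.83% and 1.85% in Y-Scr, and Rpl3 took 2.55%, 2.55% and 2.56% in Y-KO and 2.88%, 2.88% and 2.96% in Y-Scr. These 3 genes took less in every Y-KO library.

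Groups did not overlap in 41 of the 82 members by this measure, 21 with Y-KO higher and 20 with Y-KO lower. Over all genes tested and set against the same total, 7.84% were separated with Y-KO higher and 23.1% with Y-KO lower. For Y-KO lower, the share of members was thus close to that of all genes. Members make up the total, so shifts between libraries that they share cancel in members and not in other genes. The 2 sets of shares are therefore not like for like. A percentage of a fixed total must fall for some members where it rises for others, so the 2 directions are not independent. A fit scaled to the ribosomal protein total, chosen after seeing the data, called 5 members higher (Rplp2, Rps20, Rpl18 and Rps2 among them) and 2 lower by edgeR, where 2.25% of all genes tested were called higher and 8.12% lower. Rps16 had a log2 fold change of -0.45 (edgeR adjusted p = 0.00489) and Rpl5 of -0.28 (edgeR adjusted p = 0.0481) in that fit.

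**Figure D3:**
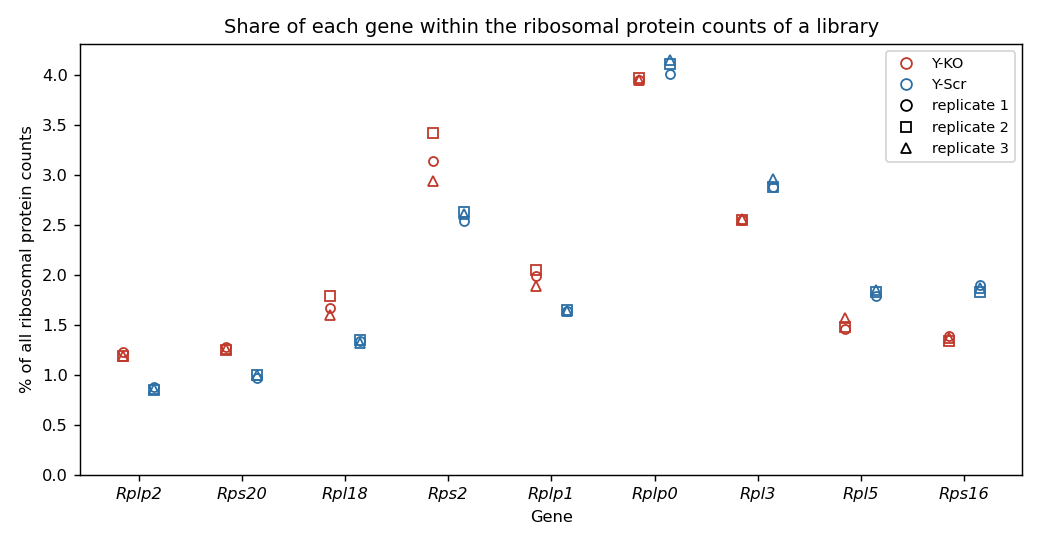
Percentage of all ribosomal protein counts of a library (y axis, from 0) for 9 members, with Y-KO in red left of Y-Scr in blue and a marker shape for each replicate. Rplp2, Rps20, Rpl18, Rps2 and Rplp1 took more in every Y-KO library, and Rplp0, Rpl3, Rpl5 and Rps16 took less.

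The members moved together between libraries of 1 group. Among the 77 members averaging at least 50 CPM, Y-KO replicate 3 was the highest Y-KO library in 76 and Y-Scr replicate 1 the highest Y-Scr library in 77. The median log2 difference between Y-KO replicate 3 and the mean of the other 2 Y-KO libraries was 0.22 in members, against -0.04 over 4549 genes of that level. Between Y-Scr replicate 1 and the mean of the other 2 Y-Scr libraries it was 0.24 in members and 0.01 over those genes. These within-group steps were larger than the median difference of 0.11 between the groups. Over the 4549 genes, the 5th to 95th percentiles of the log2 difference ran from -0.789 to 0.521 for Y-KO replicate 3. For Y-Scr replicate 1 they ran from -0.28 to 0.238. In the 77 members the SD was a median of 9.83% of the mean in Y-KO and 9.67% in Y-Scr.

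Some differences within a group varied with the length of the coding sequence. For Y-Scr replicate 1 over the other 2 Y-Scr libraries, the Spearman correlation of the log2 difference with coding length was -0.657 over 77 members, which share the same libraries. Members under 400 coding bases (27 genes) had a median difference of 0.32 there, against 0.22 for the other 50. Between Y-KO replicates 1 and 2 the correlation was -0.674, with medians of 0.12 and 0.04. For Y-KO replicate 3 over the others it was -0.2, with medians of 0.22 for short and 0.22 for longer members. For Y-KO over Y-Scr it was -0.198, with medians of 0.11 for short and 0.10 for longer members.

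**Figure D4:**
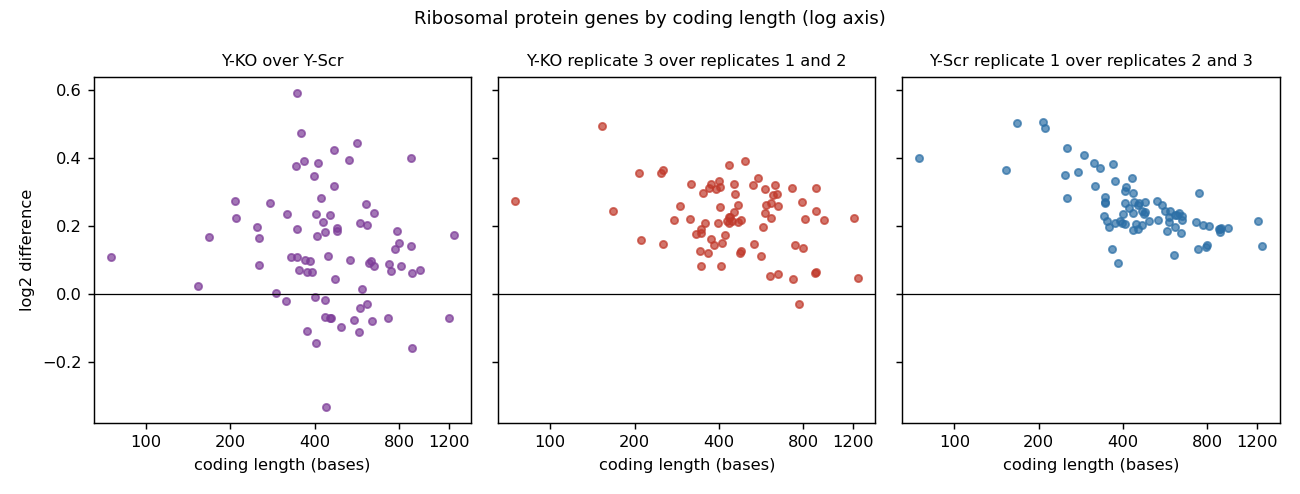
Log2 difference (y axis) against coding length in bases (x axis, log scale) for 77 members, from left to right for Y-KO over Y-Scr, Y-KO replicate 3 over replicates 1 and 2, and Y-Scr replicate 1 over replicates 2 and 3. The points slope down in the right panel (Spearman -0.657) and hardly in the left (-0.198).

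Levels differed widely between members. Per length (TPM on the merged exon length, mean of 6 libraries), the highest were Rplp1 at 9032, Rplp0 at 6073, Rps15 at 5181, Rpl8 at 4142 and Rpl17 at 4072. The order depends on the length used: by counts over the length of the principal transcript, Rpl41 ranked 1, Rplp1 ranked 2 and Rps12 ranked 3, while Rplp0 ranked 6, Rpl17 ranked 9, Rpl8 ranked 11 and Rps15 ranked 12. Rps15, near the decoding site, had 1161, 1134 and 1327 CPM in Y-KO and 1184, 1022 and 986 CPM in Y-Scr. Rpl8, at the peptidyl transferase centre, had 2047, 2073 and 2016 CPM in Y-KO and 2043, 1797 and 1756 CPM in Y-Scr. Rpl17, at the tunnel rim, had 1726, 1610 and 2113 CPM in Y-KO and 2155, 1790 and 1802 CPM in Y-Scr. The groups overlapped in these 3 genes and none was called.

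The lowest per length among those tested were Rpl3l at 0.421, Rpl24 at 8.87, Rps10 at 9.84, Rpl13a at 71.5 and Rpl7l1 at 89.2, and the same 5 were lowest by principal transcript. Rpl24 had 3.73, 2.64 and 4.25 CPM in Y-KO and 2.91, 3.05 and 2.56 CPM in Y-Scr, and Rps10 had 7.10, 10.2 and 8.97 CPM in Y-KO and 7.11, 6.91 and 7.25 CPM in Y-Scr. Rpl13a had 55.4, 58.1 and 58.9 CPM in Y-KO and 50.4, 46.2 and 46.9 CPM in Y-Scr (log2 fold change 0.26, edgeR adjusted p = 0.0737). The groups overlapped in Rpl24 and Rps10 and did not in Rpl13a. Other genes cover 47.0% of the exon bases of Rpl24 (1 gene), 28.7% of Rps10 (2 genes) and 35.4% of Rpl13a (3 genes). The gene with the largest overlap, on the same strand in each case, is Gm28037 for Rpl24, RPS10-NUDT3 for Rps10 and Gm45713 for Rpl13a, and these are listed at 0 counts in every library. Reads that fit several genes were left out of the counts, and the effect on these 3 members was not tested. In 44 of the 82 members no exon base lies in another gene.

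Genes that act with the ribosomal proteins were read from lists. Ribosomal proteins with other names had 0 of 5 called, and Rack1, a scaffold on the small subunit, averaged 2393 ± 194 CPM over Y-KO libraries, against 2379 ± 177 CPM over Y-Scr libraries (SD, n = 3 each). Of 52 ribosome assembly factors, 17 were called higher and 0 lower, with a median log2 fold change of 0.29. The nucleolar proteins Ncl (log2 fold change 0.67, edgeR adjusted p = 0.00388) and Npm1 (0.62, edgeR adjusted p = 0.000779) were among them, with Nop16 (0.58) and Wdr12 (0.56), factors of the large subunit. Npm1 had 1281, 1235 and 1190 CPM in Y-KO and 848, 782 and 778 CPM in Y-Scr. Here Y-KO replicate 3 was the lowest Y-KO library, unlike in nearly all ribosomal protein genes. The 17 became 4 without Y-KO replicate 1, 5 without Y-KO replicate 2, 32 without Y-KO replicate 3, 9 without Y-Scr replicate 1, 3 without Y-Scr replicate 2 or 3, and 0 with close pairs summed. Over all genes tested, 7.82% were called higher in the full fit. The share in those fits was, in the same order, 3.86%, 3.9%, 16%, 5.2%, 2.45%, 2.56% and 0.7%. Wdr12 lost its call without Y-Scr replicate 2 or 3.

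Mitochondrial ribosomal proteins, a separate family, had 19 of 78 called higher and 0 lower, with a median log2 fold change of 0.25. Mrps12 (0.66), Mrpl43 (0.61), Mrps25 (0.55) and Mrpl21 (0.47) had the smallest p, and each lost its edgeR call without Y-Scr replicate 2. Without Y-Scr replicate 3 the calls of Mrpl43, Mrps25 and Mrpl21 were lost, as were that of Mrps25 without Y-KO replicate 1 and that of Mrpl21 without Y-KO replicate 2. All 13 mRNAs encoded in mitochondria were called higher, with a median of 1.31. The count of 19 was 4 without Y-KO replicate 1, 6 without Y-KO replicate 2, 32 without Y-KO replicate 3 (with 2 lower), 18 without Y-Scr replicate 1, 0 without Y-Scr replicate 2 and 1 without Y-Scr replicate 3. With close pairs summed it was 0, and 11 of the 13 mRNAs encoded in mitochondria were still called. The share of all genes called higher moved across these fits too, as given for the assembly factors.

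Of 36 initiation factors, 14 were called higher and 2 lower, with a median of 0.26. Those with the smallest p were Eif4g2 (0.50), Eif6 (0.64), which keeps the large subunit from joining too early, and the eIF3 subunits Eif3b (0.50) and Eif3d (0.40). Eif5 (-0.38) and Eif3h (-0.34) were the 2 called lower. The 14 became 5, 4 and 23 without Y-KO replicates 1, 2 and 3, and 14, 2 and 3 without Y-Scr replicates 1, 2 and 3. The 2 lower became 4 without Y-KO replicate 3, 1 without Y-KO replicate 1 or 2 or Y-Scr replicate 1, and 0 without Y-Scr replicate 2 or 3. With close pairs summed, 0 were called in either direction. The shares of all genes called higher and lower moved across these fits as well, as given with the members. Eif3b and Eif3d lost their calls without Y-Scr replicate 2 or 3. Eif5 did too, and Eif3h kept its call only without Y-KO replicate 3. Among 15 elongation factors and other mRNAs with a pyrimidine tract, 7 were called higher and 1 lower, with a median of 0.20. This list shares genes with those of initiation and assembly factors. Its 1 gene called lower was Eif3h, and Npm1 was among the 7 called higher, so both are counted again here. Eef1g had 1714, 1743 and 1724 CPM in Y-KO and 1332, 1225 and 1196 CPM in Y-Scr (log2 fold change 0.47, edgeR adjusted p = 0.00233), and Btf3, a subunit of the nascent chain complex, had a log2 fold change of 0.46. The 7 became 3 without Y-Scr replicate 2 or 3 and 0 with close pairs summed. The 1 lower became 4 without Y-KO replicate 3 and 0 without each other library or with close pairs summed.

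Of 17 genes around mTORC1, Larp1 and Myc, 2 were called higher and 1 lower. Eif4ebp1, the translation repressor that mTORC1 phosphorylates, had 193, 189 and 167 CPM in Y-KO and 96.6, 88.5 and 83.4 CPM in Y-Scr. It was 2.04-fold higher (log2 fold change 1.03, SE 0.10, edgeR adjusted p = 0.000369) and kept its edgeR call without each library and with close pairs summed. Akt1s1, an inhibitor within mTORC1, had a log2 fold change of 0.53 (edgeR adjusted p = 0.0218), a call that among the fits without 1 library was kept only without Y-KO replicate 3. Mycn had 0 counts in every Y-KO library and 16, 9 and 20 counts in Y-Scr, and its call too was kept only without Y-KO replicate 3. Larp1 (0.20, edgeR adjusted p = 0.21) and Myc (0.27, edgeR adjusted p = 0.0509) were not called. Of 8 S6 kinases tested, Rps6kc1 (0.40) was called higher and Rps6ka1 (-0.33) lower. Both calls were kept without Y-KO replicate 3 and lost without each other library and with close pairs summed.

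Markers of several other cell types differed between the groups beside these counts. Of the markers tested, 15 of 16 for T and NK cells, 6 of 9 for B cells, 7 of 9 for neutrophils, 7 of 8 for mast cells and 5 of 5 for erythroid cells were called lower in Y-KO, and 6 of 12 macrophage markers higher. Of 12 pan-leukocyte markers 3 were called lower, and of 10 fibroblast markers 3 (0 and 1 with close pairs summed). Of 7 endothelial markers and of 5 pericyte and smooth muscle markers tested, 0 were called. The neutrophil count of 7 became 2, 1 and 1 without Y-Scr replicates 1, 2 and 3 and 0 with close pairs summed. The B cell count of 6 became 4 without Y-Scr replicate 1, and also with close pairs summed. The macrophage count of 6 became 11 without Y-KO replicate 3 and 1 with close pairs summed. With close pairs summed, 12 T and NK cell, 7 mast cell and 5 erythroid markers were called lower. Over all genes tested, 8.27% were called lower in the full fit and 1.85% with close pairs summed. The share was 4.06%, 3.1% and 3.01% without Y-Scr replicates 1, 2 and 3. Pan-leukocyte markers summed to 3134, 3172 and 1486 CPM in Y-KO and 4055, 3873 and 3928 CPM in Y-Scr, and fibroblast markers to 239, 246 and 699 CPM in Y-KO and 1088, 1023 and 1027 CPM in Y-Scr. Y-KO replicate 3, the Y-KO library with the highest ribosomal protein level, was the lowest in leukocyte and the highest of its group in fibroblast markers. Y-Scr replicate 1, the Y-Scr library with the highest ribosomal protein level, was instead the highest of its group in leukocyte markers. It was also the highest in fibroblast markers, at 1088 CPM against 1023 and 1027 CPM. The part of these markers in the ribosomal protein values was not tested.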

How the data were processed

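RNA-seq of 6 libraries was analysed from 1 table of raw counts per gene, which the authors deposited. Per the labels' protocols, poly-A libraries were made with a stranded kit. Per the file headers, reads were counted with featureCounts 1.5.3 on Ensembl release 112 (GRCm39) with no further option, so by default strand was ignored, reads were counted singly, and reads fitting several places or genes were left out. Among counts from 2 to 20, 80.3% to 82.3% per library were even, so counts often came in pairs. Totals are therefore not numbers of independent reads. The submitters' processing notes name FastQC 0.12.1, MultiQC 1.13, Trimmomatic 0.39 and STAR 2.5.2b.

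Symbols and biotypes came from GENCODE M21 by gene ID (51880 IDs, 90.7%). Groups follow the labels. The test was edgeR 4.0.16, run in R 4.3.3, on these counts (filterByExpr with a minimum count of 10 and total of 15, TMM, quasi-likelihood test, group alone), with Benjamini-Hochberg adjustment over the 17837 genes tested and calls under 0.05. The SE is the log2 fold change divided by the square root of F. Tests were checked on simulated counts. Precision rests on totals of 42040955 to 52951031 counts and on 3 libraries per group.

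Values in every library are given for up to 12 called members per direction by p, the paralogs and their partners, Rplp0, Rplp1 and Rplp2, and the 5 highest and 5 lowest members per length; other lists give up to 4 genes by p. A gene that this rule names is not reported here. Rps16, Rpl5, Rpl11, Myc, Larp1, Rack1 and Eif5 were named after their values were seen, as was Eif3h. Rps4l is not annotated as protein coding and is not a member. The members and lists were chosen with earlier results of these data known. Alternatives tried were DESeq2 1.42.0, limma-voom (limma 3.58.1), a block for the replicate number, other scalings and filters, halved counts and leaving out each library. Sums of close pairs and scaling to the ribosomal protein total were added after seeing the data. Plots used matplotlib 3.10.9.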

Additional observations from a re-analysis of the deposited data

How the results depend on the processing

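The edgeR counts were 2871 genes called, and 11 members higher and 0 lower. With the replicate number as a block, 5 of 80 members were called higher and 0 lower, and 2066 genes in all. That fit called 5.3% of all genes tested higher and 6.28% lower. Same-numbered libraries did not deviate together (correlations of -0.009, -0.006 and -0.016 for numbers 1, 2 and 3). Correlations of the other pairs across groups were also near 0 (-0.015 to 0.022). The labels do not say whether same-numbered libraries share more than the number. Among the calls the block ended in edgeR were those of Rps27a (adjusted p = 0.0840), Rpl23a (0.0592), Rpl28 (0.0588), Rps12 (0.0548) and Rpl22l1 (0.0528). Library size alone as scaling moved the median of all genes to -0.17, from -0.03 with TMM, and the median log2 fold change of ribosomal protein genes tested to -0.0315, and called 4 members higher and 1 lower. Members called lower numbered 1 with DESeq2, with limma-voom, without a filter on low counts and with a mean CPM of at least 1, against 0 in the edgeR fit. The last 2 of these settings called 6.69% and 10.4% of all genes tested lower. Scaling to the ribosomal protein total called 5 members higher, 2 lower and 1849 genes, and summing the close pairs 0 members and 496 genes, which leaves 2 samples a group. Both were chosen after seeing the data. Relative log expression scaling, TMM without ribosomal protein and mitochondrial genes, and halved counts each called 11 members higher and 0 lower. Over all genes tested they called 8.08%, 7.87% and 9.35% higher. Leaving out each library gave 1037 to 6393 genes, 1 to 16 members higher and 0 to 9 lower, and a member median of 0.06 to 0.23. The share of counts in ribosomal protein genes differed, Y-KO minus Y-Scr, by -0.151 percentage points, and by -0.628 to 0.265 without single libraries. No gene called by edgeR and named here changed direction under these settings, while among members not called the sign moved with scaling: 61 of 80 members tested were above 0 with TMM, 37 with library size alone and 38 with the ribosomal protein total. The cause of these changes was not tested. Low counts limit what can be said of Rpl3l, Rpl10l and Rpl39l.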
